A study of Mus musculus with 8 samples.

Results

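The angiopoietin-Tie system was read here through 5 genes, namely Angpt2 and Angpt1 (the ligands), Tek and Tie1 (the receptors) and Ptprb (the receptor-type phosphatase VE-PTP), chosen by name out of 20408 genes listed in any of 8 single-cell libraries. They were measured in the 7159 cells with at least 1 Pecam1 UMI (a unique molecular identifier, counting 1 captured transcript) among 8204 deposited cells. The libraries hold CD45-/CD31+ tumour endothelial cells (ECs) of 2 breast tumour models, with 2 libraries from separate mice in each of 4 groups. The spontaneous model is the adult female MMTV-PyMT mouse, whose mammary epithelium carries the polyomavirus middle T transgene under the mammary tumour virus promoter. In the implanted model, tumour cells taken from MMTV-PyMT nodules were expanded on plates, mixed with Matrigel and injected into the mammary fat pad of adult female mice. Tumours of both models received either PBS or cGAMP, a cyclic dinucleotide agonist of STING, by intratumoural injection and were collected hours later. The labels give the strain as C57BL/6 and the methods as FVB, so the strain is not stated further. The models differ both in how the tumour arose and in whether its cells had been cultured, and these cannot be told apart. Replicates are libraries of separate mice, 2 a group. Each test rests on a spread between replicates that is pooled over all 4 groups and moderated by limma toward a trend over all genes. The SE given with a fold change is of this kind.

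ANGPT1, made mainly by pericytes and other perivascular cells, binds the receptor tyrosine kinase TIE2, encoded by Tek, and keeps endothelium quiescent through PI3K and AKT. ANGPT2 is made by ECs themselves, is stored in Weibel-Palade bodies and opposes ANGPT1 in most adult vessels, where it favours leak, sprouting and regression. TIE1 is a partner receptor that binds neither ligand strongly and shapes TIE2 signalling, and VE-PTP removes phosphate from TIE2. In tumours ANGPT2 is a known product of sprouting endothelium.

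The genes were taken from the GRCm38 (mm10) annotation. Angpt2 lies on chromosome 8 (18690263 to 18741562, minus strand), Tek on chromosome 4 (94739289 to 94874976, plus strand) and Tie1 on chromosome 4 (118471191 to 118490061, minus strand). Ptprb lies on chromosome 10 (116275523 to 116389535, plus strand) and Angpt1 on chromosome 15 (42424723 to 42676977, minus strand). All 5 are annotated as protein coding. Angpt2 sits inside the span of Mcph1, a chromosome condensation gene on the opposite strand (18595131 to 18803189), and 1 annotated Mcph1 exon overlaps it. Mcph1 itself stayed between 3.84 and 8.39 CPM (the UMIs of a gene scaled to the same total in every cell, averaged over cells) in the 8 libraries and was lowest in an implanted cGAMP library, the group in which Angpt2 was highest. Upstream sequence from RefSeq (GRCm38.p6) was matched for 2 of the 5 genes, Tek and Tie1. The 250 bases before the Tek start (chr4:94739039-94739288, plus strand) are shown because Tek is the receptor of both ligands.
Tek: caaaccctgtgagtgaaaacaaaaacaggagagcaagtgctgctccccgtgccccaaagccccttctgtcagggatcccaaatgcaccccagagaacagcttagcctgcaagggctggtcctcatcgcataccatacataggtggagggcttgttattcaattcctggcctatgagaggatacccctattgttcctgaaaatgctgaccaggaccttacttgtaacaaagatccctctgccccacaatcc
This window held no match, on either strand, to the motifs searched. These were the interferon-stimulated response element by name, found in 2.98% of 32851 upstream windows of the same length, and the NF-kB consensus by name, found in 3.9%. The FOXO motif was searched as TGTTTAC and was found in 3.17% of these windows. For the GATA factors the letters searched were AGATAA, present in 9.99% of all windows. The core of the ETS family, written GGAAGT, was present in 19.7%. The absence of a match says only that these letters are not in the window.

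Each library held between 601 and 1529 Pecam1-positive cells with 7451522 to 16338968 UMIs, and 7 barcodes of 8197 were found in more than 1 library. The median depth per cell was 9523 to 14707.5 UMIs in 7 libraries and 3049 in implanted cGAMP replicate 1, in which 37.93% of the cells had fewer than 2000 UMIs against 3.28% to 10.57% elsewhere. That library also held 542 of 1269 cells of a shallow cluster led by Spp1 and Wfdc18, so results were also computed on cells with at least 2000 UMIs. Of the pan-endothelial markers, 8 of 8 were found in every library, at a summed level of 6827 to 7961 CPM. Immune markers, which the CD45 gate should remove, summed to 15.6 to 42.8 CPM in 6 libraries but to 274 and 82.3 in the implanted cGAMP libraries, with 8 of 8 markers above 0 in each library. Fibroblast markers summed to 19.1 and 29.7 CPM in implanted tumours after PBS and to 110 and 71.3 after cGAMP, and mural markers to 109 and 78.5 and to 231 and 130. In spontaneous tumours fibroblast markers summed to 19.8 and 102 CPM and then to 152 and 136, and mural markers ran from 86.8 to 461 CPM after PBS and from 599 to 761 after cGAMP. Without the 1200 cells that belonged to non-endothelial-like clusters or carried 3 or more markers of 1 other cell type, the 4 implanted responses called below kept their calls. Vessel markers moved with the injection too. The lymphatic markers summed to 670 and 474 CPM in implanted tumours after PBS and to 1860 and 1848 after cGAMP, with 4 of 8 called higher, against 484 and 1104 and then 855 and 595 in spontaneous tumours, with 0 of 8 called. Lymphatic-like cells were 5.5% and 3.83% of the implanted cells and then 5.04% and 7.95%. Of the proliferative markers 8 of 8 fell in implanted and 5 of 8 in spontaneous tumours, and of the arterial markers 6 of 8 and 4 of 8 fell. Of 8 tip-like markers 4 rose and 3 fell in implanted tumours, and 3 rose and 1 fell in spontaneous tumours. Of 8 venous markers 3 fell in each model and 1 rose in spontaneous tumours. Of 8 AQP7+ capillary markers 2 fell in implanted and 1 in spontaneous tumours. Of all genes tested, 8.6% were called higher and 16.4% lower in implanted tumours, and 12.7% were called in spontaneous tumours. The part of the immune, fibroblast, mural and vessel markers in the results was otherwise not tested.

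To determine how the system responded to STING activation, the level of each gene was taken as the mean CPM over cells in each library and compared with limma on log2(CPM + 1), with Benjamini-Hochberg adjustment over all 10424 genes tested; a gene was called where the adjusted p was under 0.05. In implanted tumours Angpt2 rose 5.85-fold after cGAMP, whereas both receptors and Ptprb fell, in libraries whose lymphatic markers were also higher. In spontaneous tumours Ptprb also fell, Angpt2 rose by less than the test could call, and Tie1 hardly moved. Angpt1 was close to the detection limit in every library.

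Angpt2 was at 63.8 and 42 CPM in the 2 implanted PBS libraries and reached 295 and 321 CPM in the pair that received cGAMP, from 1038 and 774 UMIs and 4658 and 3969 UMIs. The groups were far apart, and the log2 fold change was 2.55 ± 0.18 (SE, n = 2 against 2; limma adjusted p = 2.68e-05). In spontaneous tumours Angpt2 was at 70.8 and 89.5 CPM after PBS and at 118 and 101 CPM after cGAMP. These groups did not overlap either, but the log2 fold change of 0.44 ± 0.18 was not called (limma adjusted p = 0.141). It was called in 3 of 18 alternatives, with values of 0.64 on summed UMIs, 0.57 with vessel classes weighted equally and 0.44 on the spontaneous libraries alone. The response was larger in implanted tumours by 2.10 ± 0.26 on the log2 scale (limma adjusted p = 0.021), the 6th smallest p of 10424 genes, where 0.662% of genes were called. This call was lost without spontaneous PBS replicate 2 (1.94, adjusted p = 0.0625), without spontaneous cGAMP replicate 1 (2.22, adjusted p = 0.0686) and without spontaneous cGAMP replicate 2 (1.99, adjusted p = 0.154) in the same limma fit, and with no filter on low values (adjusted p = 0.148).

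Tek, the receptor of both angiopoietins, was at 137 and 137 CPM in the implanted PBS libraries and at 91.9 and 106 CPM after cGAMP. It fell by 0.47 ± 0.09 on the log2 scale (limma adjusted p = 0.00556). In spontaneous tumours Tek was at 185 and 167 CPM after PBS and at 145 and 146 CPM after cGAMP. The groups did not overlap, but the change of -0.28 ± 0.09 was not called (limma adjusted p = 0.0783). It was called on summed UMIs (-0.35), on cells with at least 2000 UMIs (-0.33), on the spontaneous libraries alone (-0.28) and without either implanted cGAMP library (-0.28 in each), 5 of 18 alternatives.

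Tie1, the partner receptor, was at 214 and 198 CPM in the implanted PBS libraries and at 122 and 143 CPM after cGAMP, a fall of 0.64 ± 0.11 on the log2 scale (limma adjusted p = 0.00313). In spontaneous tumours it was at 210 and 232 CPM after PBS and at 206 and 244 CPM after cGAMP. These 4 libraries overlapped, and the log2 fold change was 0.02 ± 0.11 (limma adjusted p = 0.934), with a sign that turned in 6 of 18 alternatives. The difference between the responses was -0.66 ± 0.16 and was not called (limma adjusted p = 0.109), except without implanted cGAMP replicate 2 (-0.77, adjusted p = 0.0431).

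Ptprb was at 817 and 989 CPM in the implanted PBS libraries and at 536 and 548 CPM after cGAMP. It fell by 0.73 ± 0.09 on the log2 scale (limma adjusted p = 5e-04). In spontaneous tumours it was at 994 and 1036 CPM after PBS and at 712 and 746 CPM after cGAMP, and fell by 0.48 ± 0.09 (limma adjusted p = 0.00888). In both models the cGAMP libraries lay below the PBS libraries without overlap. The spontaneous call was lost without spontaneous PBS replicate 2 (-0.45, adjusted p = 0.0588) or spontaneous cGAMP replicate 1 (-0.44, adjusted p = 0.0862) in the limma fit, and the difference between the responses was -0.25 (adjusted p = 0.436). Of the 4 tested members, 4 were thus called in implanted tumours, where 25% of all genes tested were called, and 1 in spontaneous tumours, where 12.7% were called. In implanted tumours 8.6% of the genes tested were called upwards and 16.4% downwards. The libraries of 63.1% of genes in implanted and 60.3% in spontaneous tumours did not overlap between PBS and cGAMP, and the median log2 fold change over all genes was -0.10 in each model. The 4 implanted calls held in 18 of 18 alternatives, median-of-ratios scaling included.

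**Figure D1:**
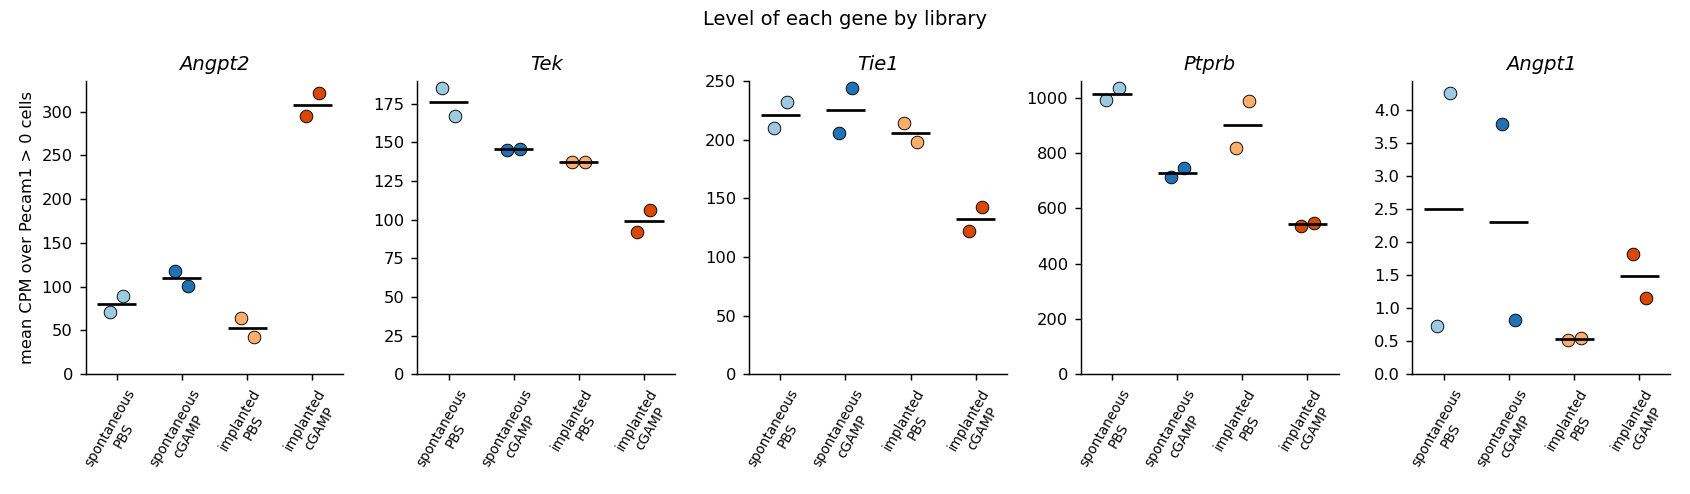
Mean CPM over Pecam1-positive cells (vertical axes, from 0, one scale per gene) of the 5 genes in the 8 libraries, grouped by model and injection on the horizontal axes; each point is 1 library and each line the mean of its 2 libraries. Both implanted cGAMP libraries stand at 295 and 321 CPM for Angpt2, above all other libraries, and below all other libraries for Tek, Tie1 and Ptprb.

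The 2 models were also compared under the same injection; these comparisons share libraries with the responses above and are given beside them, not as separate support. After PBS, Tek was lower in implanted than in spontaneous tumours by 0.36 on the log2 scale (limma adjusted p = 0.0432). This was the only one of the 4 tested members called, where 7.83% of all genes were called, and the call was lost in 10 of 17 alternatives, among them 6 of 8 that left out 1 library, whose values ran from -0.44 to -0.29. Angpt2 differed by -0.61 (adjusted p = 0.0757), Tie1 by -0.10 (adjusted p = 0.626) and Ptprb by -0.18 (adjusted p = 0.269) in the same limma fit. Without implanted PBS replicate 1 the Angpt2 difference was -0.91 and was called (limma adjusted p = 0.0241). After cGAMP all 4 were called, where 13.8% of all genes were called. Angpt2 was higher in implanted tumours by 1.49 ± 0.18, whereas Tek differed by -0.55, Tie1 by -0.76 and Ptprb by -0.43 (limma adjusted p = 0.00206, 0.00661, 0.00419 and 0.0162, respectively). Without spontaneous cGAMP replicate 2 the calls of Tek (-0.55, adjusted p = 0.0667), Tie1 (-0.63, adjusted p = 0.0589) and Ptprb (-0.39, adjusted p = 0.13) in this limma fit were lost, and that of Ptprb also without spontaneous cGAMP replicate 1 (-0.46, adjusted p = 0.0653).

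To see whether more cells or more transcripts per cell carried these changes, every cell was thinned to 2000 UMIs, which left out 22 to 102 shallower cells per library in 7 libraries and 580 in implanted cGAMP replicate 1. Angpt2 was then found in 10.4% (95% Wilson interval 8.61 to 12.6) and 5.65% (4.39 to 7.23) of cells of the implanted PBS libraries. After cGAMP it was found in 30.2% (27.4 to 33.2) and 25.7% (22.2 to 29.4). In positive cells the mean rose as well, from 1.41 and 1.34 UMIs to 1.94 and 2.29 UMIs at this depth. In spontaneous tumours the shares were 8.23% and 9.39% after PBS and 16% and 11.7% after cGAMP, whereas the mean of positive cells was 1.61 and 1.81 UMIs and then 1.57 and 1.69 UMIs. The share was thus higher after cGAMP in both models, and the level per positive cell was higher without overlap only in the implanted libraries, a difference between the models that was not tested. Before thinning the shares were 24.3% and 19.7%, then 43.1% and 52.8%, in implanted tumours, and 19% and 25.6%, then 37.8% and 35.5%, in spontaneous tumours. Wilson intervals cover counting error only.

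The receptors and Ptprb were found in fewer cells after cGAMP in implanted tumours. Tie1 was found in 34.7% and 33.2% of thinned cells after PBS and in 22.1% and 23.5% after cGAMP. For Tek the shares were 22.5% and 23.6%, then 18.7% and 19.1%. Ptprb, the most widely detected of the 5 genes, was found in 65.9% and 70.8% and then in 56.6% and 53.6%. In spontaneous tumours the Tek shares were 33% and 28.5% and then 23% and 26.7%, without overlap. The Tie1 shares overlapped there (37.4% and 37.2%, then 32.1% and 37.9%) and those of Ptprb did not (72.3% and 73.5%, then 63.6% and 66.5%). The arterial-like cluster led by Gkn3 and Gper1, in which Angpt2 was lowest, had Angpt2 in 0% and 3.57% of thinned cells of the implanted cGAMP libraries. In the shallow Spp1/Wfdc18 cluster of these libraries the shares were 24.4% and 21.2%. The first cluster was picked for its low Angpt2, so its share does not measure a background.

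**Figure D2:**
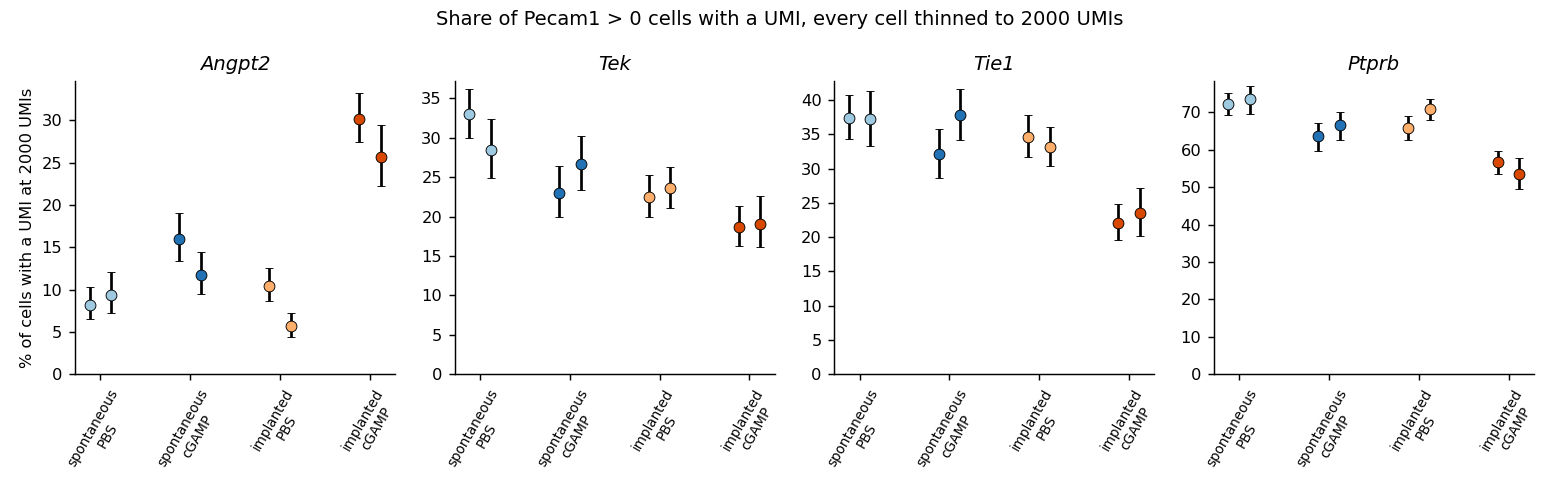
Percent of Pecam1-positive cells with at least 1 UMI of Angpt2, Tek, Tie1 and Ptprb after thinning every cell to 2000 UMIs (vertical axes, from 0), by model and injection; each point is 1 library and bars are 95% Wilson intervals. The Angpt2 shares of 30.2% and 25.7% in the implanted cGAMP libraries lie above all other libraries, and the Tie1 shares of 22.1% and 23.5% below them.

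Angpt2 UMIs were spread unevenly over cells. Cells were ranked here on UMIs before thinning, so deeper cells weigh more, and no other gene was set beside Angpt2. The 10% of cells with the most Angpt2 UMIs held 80.3% and 86.3% of them in the implanted PBS libraries and 77.4% and 64.1% after cGAMP, and in spontaneous tumours 87.4% and 82.7% and then 70.3% and 73.7%. A single cell carried up to 144 Angpt2 UMIs.

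To place the system on the vessel tree, the cells were clustered without the 5 genes and without 430 genes that cGAMP raised, and clusters were named from marker lists as "-like" or, where no list fitted, by their leading genes. Levels by cluster are a description, since clusters were made from the same cells. The orders below are limited to the 8 clusters with at least 20 cells in 7 or more libraries. Among these, Angpt2 was highest in the lymphatic-like cluster (300 cells), with a median of 403 CPM over the 7 libraries with at least 20 such cells. Next came tip-like cells (838 cells), named from markers such as Pgf, Apln and Esm1, with a median of 185 CPM over 8 libraries. The leading genes of the tip-like cluster also included Nos2, Bmp2 and Kit. With the finer clustering 426 cells were named tip-like. A cluster of 547 cells with Nos2, Kit and Bmp2 among its leading genes was then not named. For tests with the finer clustering, each finer cluster was counted under the cluster above that held most of its cells, whatever its own name. Tip-like in those tests was set by this rule and not by markers. Tip-like cells were 11.7% of the cells and held 34.2% of Angpt2 UMIs. The main venous-like cluster, led by Cysltr1 and Selp, had a median of 134 CPM, the Ptn/Robo1 cluster 86.9 and the Spp1/Wfdc18 cluster 83.3. The arterial-like cluster led by Mal and Pcp4l1 had 24.6, AQP7+ capillary-like cells 22.5 and the arterial-like cluster led by Gkn3 and Gper1 6.55. Neighbours in this order were not always apart. Lymphatic-like exceeded tip-like cells in 5 of 7 libraries, and tip-like exceeded venous-like cells in 6 of 8. Ptn/Robo1 exceeded Spp1/Wfdc18 cells in 2 of 8, and the Mal/Pcp4l1 arterial-like exceeded AQP7+ capillary-like cells in 4 of 8. The AQP7+ capillary-like cluster held 575 cells, with Itm2a, Cxcl12 and Btnl9 also among its leading genes. With the finer clustering 144 cells were named AQP7+ capillary-like. A cluster of 438 cells with Itm2a, Cxcl12 and Btnl9 among its leading genes was then not named.

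Over these clusters Ptprb was highest where Angpt2 was lowest and lowest where Angpt2 was highest, but venous-like cells stood high for both. The Ptprb median was 1590 CPM in the Gkn3/Gper1 arterial-like cluster, 1489 in the Mal/Pcp4l1 arterial-like cluster and 1073 in venous-like cells. It was 897 in AQP7+ capillary-like and 718 in Ptn/Robo1 cells, but 365 in tip-like, 348 in Spp1/Wfdc18 and 260 in lymphatic-like cells. The step from Ptn/Robo1 to tip-like cells held in 8 of 8 libraries. Tek had its highest median of these 8 clusters in the Gkn3/Gper1 arterial-like cluster (283 CPM), above Cysltr1/Selp venous-like cells (184) in 7 of 8 libraries, and its lowest among named endothelial clusters in tip-like (88.6) and lymphatic-like (81.6) cells. The smaller Tmem108/Ncam1 venous-like cluster, measured in 2 libraries, had a Tek median of 301 CPM and a Ptprb median of 1872 CPM, and the Gm26917/Slfn4 cluster had Angpt2 at 0 and 628 CPM in 2 libraries. Tie1 was the most even, with medians between 194 and 249 CPM in 7 of these 8 clusters and 113 CPM in the shallow Spp1/Wfdc18 cluster. Over 51 means of cluster and group with at least 20 cells, the Pearson correlation of log2(CPM + 1) was 0.72 for Tek with Tie1, 0.69 for Tek with Ptprb and -0.60 for Angpt2 with Ptprb; these points share libraries and depth, and no test was made. The 3 genes most like Angpt2 in this measure were Rasgef1b (r = 0.78), Irf8 (0.77) and Tmsb10 (0.75). Those most like Ptprb were Heg1 (0.88), Bmpr2 (0.87) and Fryl (0.86), those most like Tie1 were Nova2 (0.85), Pde8a (0.83) and Mink1 (0.81), and those most like Tek were Mob2 (0.82), Atp2b4 (0.77) and Cc2d2a (0.75).

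The response was then tested within the 7 clusters that had at least 20 cells in every library. Angpt2 was called higher after cGAMP in 6 of 7 clusters in implanted tumours, the shallow Spp1/Wfdc18 cluster among them. In spontaneous tumours it was called higher in 2 of 7. The change was steepest in the Mal/Pcp4l1 arterial-like cells, where Angpt2 was nearly absent after PBS. There it was at 6.77 and 1.85 CPM (16 and 4 UMIs) in the implanted PBS libraries and at 194 and 300 CPM (210 and 281 UMIs) after cGAMP. The log2 fold change was 5.69 ± 0.43 (limma adjusted p = 5.93e-08), in a cluster where 11.1% of genes were called. In spontaneous tumours these cells had 6.23 and 7.75 CPM after PBS and 61.5 and 41.6 CPM after cGAMP, a rise of 2.70 ± 0.43 (limma adjusted p = 0.000552), where 4.63% of genes were called. At 2000 UMIs per cell, 0.952% and 0% of these cells had an Angpt2 UMI in implanted tumours after PBS and 23.9% and 22% after cGAMP. The Gkn3/Gper1 arterial-like cells of the same libraries had 12 and 18.4 CPM after cGAMP, so the 2 arterial-like clusters did not share 1 low level. The difference between the models in the Mal/Pcp4l1 cluster was 2.99 ± 0.61 and was just not called (limma adjusted p = 0.0525, with 0.236% of genes called). It was called with the finer clustering (2.94), with median-of-ratios scaling (3.08), with the replicate number as a block (2.99) and without implanted PBS replicate 1 (3.72).

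In tip-like cells Angpt2 was at 164 and 54.2 CPM in the implanted PBS libraries and at 565 and 918 CPM after cGAMP (log2 fold change 2.92 ± 0.39, limma adjusted p = 0.000114, with 17.1% of genes called). In spontaneous tumours these cells had 111 and 207 CPM and then 206 and 131 CPM, which overlapped (0.12 ± 0.39, limma adjusted p = 0.901, with 8.15% of genes called). The responses differed by 2.80 ± 0.56 (limma adjusted p = 0.0224), in a comparison with 0.946% of genes called. That call was lost without spontaneous PBS replicate 2 (2.35, adjusted p = 0.143), spontaneous cGAMP replicate 2 (2.48, adjusted p = 0.213) or implanted cGAMP replicate 2 (2.45, adjusted p = 0.094) in the same limma fit.

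Venous-like cells were named from markers such as Selp and Ackr1. In these cells Angpt2 was at 127 and 131 CPM in the implanted PBS libraries and at 405 and 323 CPM after cGAMP (log2 fold change 1.48 ± 0.17, limma adjusted p = 2.34e-05, with 8.32% of genes called). In spontaneous tumours it was at 106 and 77.6 CPM and then at 137 and 159 CPM (0.69 ± 0.17, limma adjusted p = 0.0238, with 4.21% of genes called). The spontaneous call was lost without spontaneous PBS replicate 2 (0.47) and without either spontaneous cGAMP library (0.80 and 0.58). AQP7+ capillary-like cells had 25 and 6.11 CPM, then 54.4 and 97.8 CPM, in implanted tumours (2.44 ± 0.49, limma adjusted p = 0.00384, with 6.91% of genes called), a call that was lost without implanted PBS replicate 2 (1.51, adjusted p = 0.123). The shallow Spp1/Wfdc18 cluster had 36.4 and 40.9 CPM, then 318 and 394 CPM (3.16 ± 0.40, limma adjusted p = 0.000429, with 0.981% of genes called). This cluster was led by Spp1, Wfdc18, Csn3 and Lcn2, and Csn3 is on the epithelial tumour list. Its median depth was 1556 UMIs, and 8 of 8 pan-endothelial markers were found in it. It was not shown to be a vessel class. In spontaneous tumours Angpt2 was not called in the AQP7+ capillary-like, Spp1/Wfdc18 and Gkn3/Gper1 clusters, where 2.19%, 1.05% and 1.43% of genes were called. The Gkn3/Gper1 arterial-like cells had 2.76 and 2.68 CPM, then 12 and 18.4 CPM, and were the exception (limma adjusted p = 0.837, with 0.961% of genes called), on 3 and 2, then 16 and 15 UMIs. Lymphatic-like cells were not tested because 1 spontaneous PBS library held 15 of them. In implanted tumours they had 155 and 174 CPM after PBS and 601 and 378 CPM after cGAMP. The median over the 7 measured libraries was 403 CPM, so the measured spontaneous libraries lay at 403 CPM or above. Each of these exceeded implanted cGAMP replicate 2. Angpt2 was found in 23.8% of 21 thinned lymphatic-like cells in spontaneous PBS replicate 2. In the implanted PBS libraries it was found in 18.2% of 55 and 19% of 42 such cells. After cGAMP the shares were 45.5% of 22 and 35% of 20 cells in spontaneous tumours. In implanted tumours they were then 35.8% of 67 and 33.3% of 48 cells.

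In the Ptn/Robo1 cluster, 1150 cells that no marker list named, Angpt2 was at 23.8 and 25 CPM in the implanted PBS libraries and at 214 and 224 CPM after cGAMP (log2 fold change 3.12 ± 0.15, limma adjusted p = 2.31e-09, with 15.9% of genes called). In spontaneous tumours it was at 94.3 and 121 CPM after PBS and at 76.8 and 79.4 CPM after cGAMP, a change of -0.45 ± 0.15 that was not called (limma adjusted p = 0.096, with 6.68% of genes called). The responses differed by 3.56 ± 0.21 (limma adjusted p = 5.76e-08), with 1.52% of genes called. The spontaneous direction depended on where the cluster ended. The finer clustering moved 141 of the 1150 cells to finer clusters counted as tip-like by the rule above. Those cells had 642 and 418 CPM of Angpt2 in the spontaneous PBS libraries and 267 and 279 CPM after cGAMP. The 989 cells that the finer clustering kept had 11 and 22.4 CPM after PBS and 59.7 and 50 CPM after cGAMP in spontaneous tumours. In implanted tumours they had 14.9 and 23.9 CPM and then 201 and 205 CPM. With the finer clustering the spontaneous response was 1.70 (limma adjusted p = 0.000693) and the difference of the responses 1.63 (limma adjusted p = 0.0497).

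**Figure D3:**
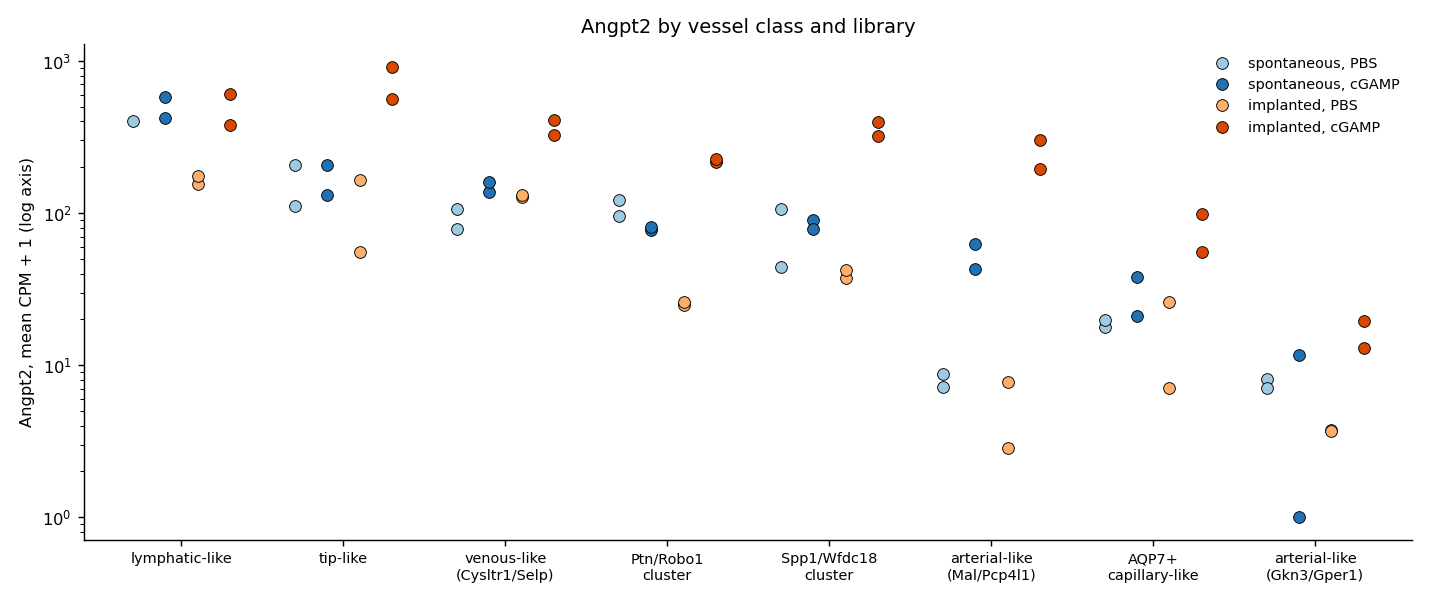
Angpt2 level (mean CPM + 1 over cells, log axis) by cluster along the horizontal axis. There is 1 point for each library that had at least 20 cells of the cluster, coloured by model and injection. The implanted cGAMP libraries lie highest in 7 of the 8 clusters shown without overlap, and the Mal/Pcp4l1 arterial-like cells go from 6.77 and 1.85 CPM after PBS to 194 and 300 CPM.

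Ptprb moved in opposite directions in different vessels of implanted tumours. It fell in both arterial-like clusters, from 1620 and 1801 CPM to 977 and 907 CPM in the Mal/Pcp4l1 cells (-0.86 ± 0.11, limma adjusted p = 3.52e-05) and from 1866 and 2062 CPM to 934 and 1069 CPM in the Gkn3/Gper1 cells (-0.97 ± 0.15, limma adjusted p = 0.00427). It fell too in venous-like cells (1111 and 1130 CPM to 644 and 588 CPM, -0.86) and in AQP7+ capillary-like cells (871 and 1096 CPM to 541 and 450 CPM, -0.98). The Gkn3/Gper1 call was lost without implanted PBS replicate 2 (-0.90, limma adjusted p = 0.104). In tip-like cells, by contrast, Ptprb rose from 255 and 262 CPM to 387 and 432 CPM, a log2 fold change of 0.66 ± 0.12 (limma adjusted p = 0.00111) that was 0.84 with median-of-ratios scaling. In spontaneous tumours tip-like cells had 391 and 417 CPM after PBS and 343 and 333 CPM after cGAMP (-0.26 ± 0.12, limma adjusted p = 0.208). The responses of tip-like cells differed by 0.91 ± 0.17 (limma adjusted p = 0.0126). With the finer clustering, the rise (0.35, limma adjusted p = 0.0663) and the difference (0.55, limma adjusted p = 0.164) kept their sign and were not called. The difference was also not called on summed UMIs (0.66) or without any 1 of 4 libraries, spontaneous PBS replicate 2 (0.87), spontaneous cGAMP replicate 1 (0.93) or 2 (0.89) and implanted cGAMP replicate 2 (0.83). In spontaneous tumours Ptprb fell in the Mal/Pcp4l1 arterial-like cells (2150 and 2001 CPM to 1239 and 1358 CPM, -0.68 ± 0.11, limma adjusted p = 7e-04) and in venous-like cells (1268 and 1475 CPM to 1034 and 961 CPM, -0.46 ± 0.11, limma adjusted p = 0.0225). The venous-like call was lost with median-of-ratios scaling (-0.39) and without spontaneous PBS replicate 2 (-0.35) or either spontaneous cGAMP library (-0.51 and -0.40).

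For the receptors the venous-like cells stood out. Tie1 went from 213 and 186 CPM to 92 and 102 CPM in implanted tumours (-1.03 ± 0.14, limma adjusted p = 0.000131), but from 208 and 218 CPM to 224 and 244 CPM in spontaneous tumours (0.14 ± 0.14, limma adjusted p = 0.72). The responses differed by -1.16 ± 0.20 (limma adjusted p = 0.00331), in a comparison with 1.11% of genes called. Tek went from 187 and 180 CPM to 81.8 and 120 CPM in the venous-like cells of implanted tumours (-0.88 ± 0.17, limma adjusted p = 0.00336), the only one of 7 clusters in which it was called. In spontaneous venous-like cells Tek went from 243 and 305 CPM to 181 and 199 CPM (-0.52 ± 0.17, limma adjusted p = 0.128), and the responses differed by -0.37 (adjusted p = 0.681). Tie1 was also called lower in implanted tip-like cells, from 219 and 247 CPM to 130 and 150 CPM (-0.73 ± 0.14, limma adjusted p = 0.00253). In Ptn/Robo1 cells it went from 243 and 217 CPM to 169 and 146 CPM (-0.54 ± 0.13, limma adjusted p = 0.0102), a call that was lost with median-of-ratios scaling (-0.41) and without implanted PBS replicate 1 (-0.46) or implanted cGAMP replicate 2 (-0.44). The 4 tested members, each in 7 clusters and 2 models, gave 19 called responses, where between 0.961% and 17.1% of all genes were called in a cluster and model.

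**Figure D4:**
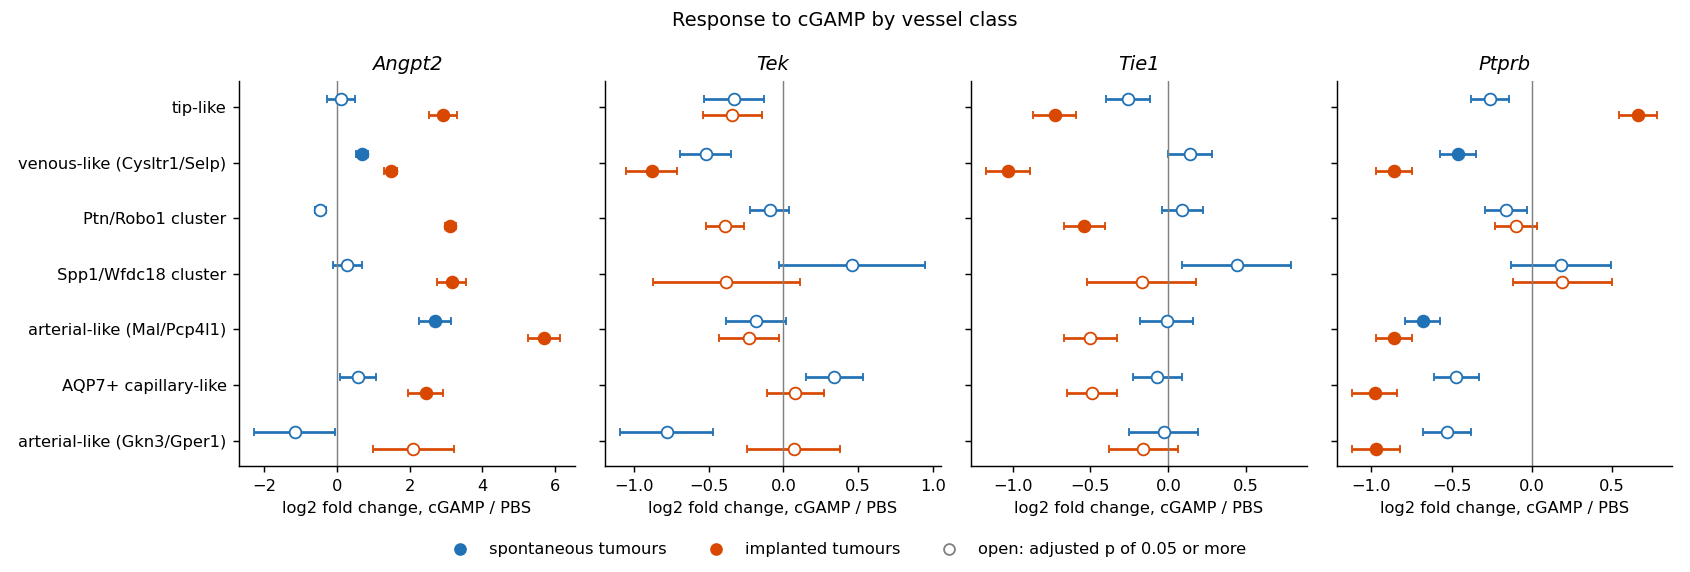
Log2 fold change of cGAMP over PBS (horizontal axes, one scale per gene) in the 7 tested clusters (rows), for spontaneous and implanted tumours, n = 2 libraries a group. Bars are 1 SE and filled points had a limma adjusted p under 0.05. Angpt2 lies right of 0 in all clusters of implanted tumours, and Ptprb is called right of 0 only in implanted tip-like cells (0.66).

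Angpt1, the agonist ligand, had 131 UMIs in all Pecam1-positive cells. By library it was at 0.735 and 4.25 CPM in spontaneous tumours after PBS, 3.79 and 0.82 after cGAMP, 0.524 and 0.541 in implanted tumours after PBS and 1.82 and 1.15 after cGAMP. It did not pass the filter on low values and was not called in an unfiltered limma fit (log2 fold change 0.68 ± 0.61 in implanted and -0.03 ± 0.61 in spontaneous tumours). The mural-like cluster, 3.02% of these cells, held 58.8% of the Angpt1 UMIs, and its cell numbers, 4 and 21 after PBS and 53 and 42 after cGAMP in spontaneous tumours, 9 and 7 and then 68 and 12 in implanted tumours, moved with the injection. The Gkn3/Gper1 arterial-like cluster came next with 13.7%. Pecam1-positive cells with at least 3 mural markers had a median of 18167 UMIs against 10122.5 in those with none, and no doublet caller was run, so pairs of a pericyte and an EC cannot be told apart from single cells here.

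The 101 cells with at least 3 mural markers and no Pecam1 UMI were read apart, pooled over libraries. They came from the CD31+ sort, and Ptprb was found in 9.9% of them. The lack of a Pecam1 UMI thus does not show them free of endothelial transcripts. These 101 cells had Angpt1 at 21.9 CPM, found in 17.8% of cells, against 0.419 CPM and 0.49% in the 5514 Pecam1-positive cells without a mural marker. Angpt2 was present in them at 95.7 CPM, from 121 UMIs in 47 cells, against 145 CPM in the same Pecam1-positive cells. Tek, Tie1 and Ptprb, in contrast, were at 2.96, 4.69 and 35.1 CPM, from 2, 2 and 12 UMIs, against 139, 192 and 792 CPM. Both sets were pooled over models and injections, and their mix of libraries may differ, so these levels do not compare like with like. The source of the Angpt2 UMIs in the mural-marker cells was not tested. Epithelial-like cells, 58 of which came from implanted cGAMP replicate 1, had Angpt2 at 76 CPM there from 12 UMIs.

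**Figure D5:**
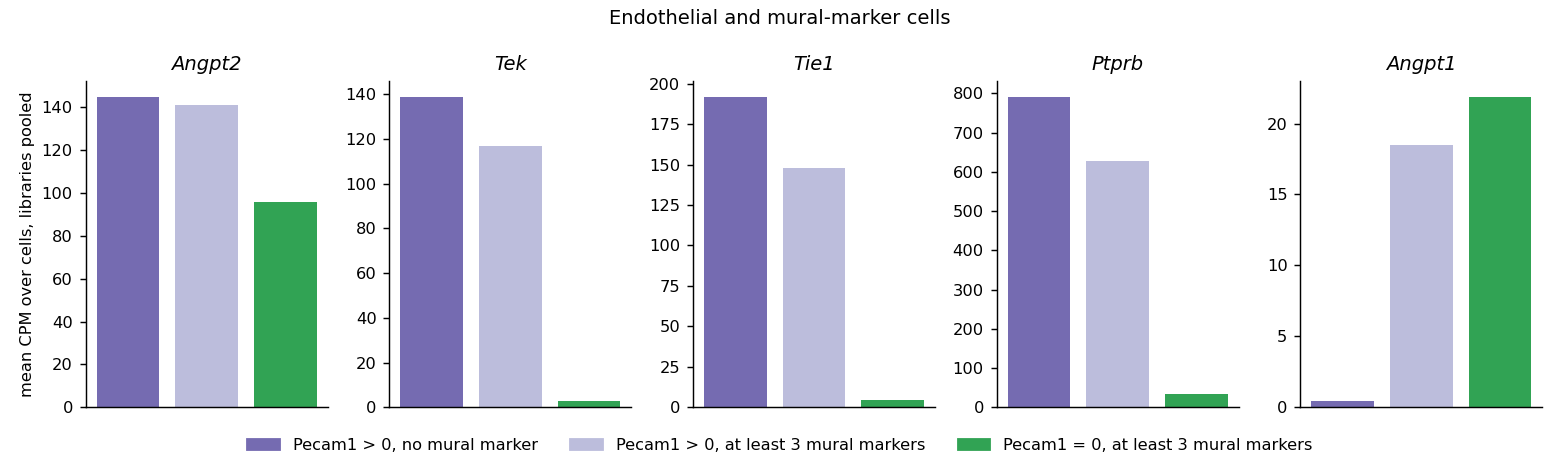
Mean CPM over cells, all libraries pooled (vertical axes, from 0, one scale per gene), of the 5 genes in Pecam1-positive cells with no mural marker (n = 5514), Pecam1-positive cells with at least 3 mural markers (n = 362) and Pecam1-negative cells with at least 3 mural markers (n = 101). Angpt1 is lowest and Tek, Tie1 and Ptprb highest in the first set, whereas Angpt2 is at 95.7 CPM or more in all 3; pooled cells have no replicate error.

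The other genes of the pathway were read from lists of ligands and partners, adaptors, regulators, targets and storage genes. Of 10 other ligands and receptor partners, 7 were tested; in implanted tumours 2 rose and 1 fell, where 25% of all genes tested were called (8.6% higher and 16.4% lower), with a median log2 fold change of 0.08 against -0.10 for all genes, and none of 7 was called in spontaneous tumours, where 12.7% of all genes were called and the median was -0.03. The same shares apply to each list of these tumours that follows, and counts near them are no result about a list. Vegfa, the endothelial growth factor, went from 8.17 and 18 CPM to 40.8 and 41.9 CPM (1.68 ± 0.34, limma adjusted p = 0.0062), and Itgav, an integrin subunit that can bind ANGPT2, rose by 0.76. Kdr, the main VEGFA receptor of ECs, fell by 0.42 on the log2 scale. Angpt4 had no UMI in any library. Of 16 adaptors and PI3K-AKT effectors, 13 were tested; in implanted tumours 2 rose and 1 fell (median 0.10) and in spontaneous tumours 0 were called (median -0.02). Tnip2, an adaptor known to bind TIE2, rose by 0.50, whereas Akt1 fell by 0.28 on the log2 scale.

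All 10 listed regulators of Angpt2 transcription were tested, and in implanted tumours 0 rose and 3 fell (median -0.12, near that of all genes). These were Epas1, the hypoxia factor HIF-2α (-0.79 ± 0.11, limma adjusted p = 0.001), Ets1 (-0.44) and Foxo1 (-0.31), the FOXO factor known to drive Angpt2. In spontaneous tumours 0 of 10 were called. Of 11 FOXO target genes, 3 rose and 1 fell in implanted tumours (median 0.02). Irs2 changed by 1.11, Spry2 by 0.86, Cited2 by 0.31 and Txnip by -0.45, with Irs2 resting on 14 to 54 UMIs a library. In spontaneous tumours 1 rose, Pik3ip1, an inhibitor of PI3K (0.62 ± 0.15, limma adjusted p = 0.0253), with a median of -0.11. Of 10 Weibel-Palade body genes, 9 were tested; 2 rose and 2 fell in implanted tumours (median -0.45) and 1 rose and 1 fell in spontaneous tumours (median -0.31). Vwf, the main cargo of these granules, went from 305 and 288 CPM to 84.2 and 47.2 CPM in implanted tumours (-2.22 ± 0.23, limma adjusted p = 0.000176) and from 270 and 217 CPM to 83.3 and 103 CPM in spontaneous tumours (-1.37 ± 0.23, limma adjusted p = 0.00447). Cd63, a granule membrane protein, rose by 1.58 in implanted and by 0.93 in spontaneous tumours, Plat rose by 0.88 and Igfbp7 fell by 0.38 on the log2 scale in implanted tumours. None of the tested genes of these 5 lists was called for a difference between the responses, where 0.662% of all genes were called. Between the models after PBS, 0 of 7, 0 of 13, 0 of 10, 1 of 11 and 2 of 9 of the tested genes of the 5 lists were called, against 7.83% of all genes. After cGAMP the counts were 4, 2, 2, 2 and 2, against 13.8% of all genes.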

How the data were processed

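Live CD45-/CD31+ cells were sorted from tumours and read with 10x 3′ libraries, 1 per mouse and 2 per group. The authors aligned them to mm10 with Cell Ranger 3.0.0 and, with Seurat 3.1.1, left out cells of low gene number or high mitochondrial share. The deposited values are on a natural log scale, ln(1 + 10000 × UMI / total UMIs of the cell). They were undone into UMIs, of which 100% were whole (tolerance 0.01). No length correction was applied to these 3′ UMIs, and levels were not tested between genes.

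The level of a gene was the mean CPM over cells with a Pecam1 UMI. Genes with at least 5 CPM in 2 libraries were tested with limma 3.58.1 (R 4.3.3) on log2(CPM + 1) over all 4 groups, without a replicate term. Fold changes on this scale understate those of low genes. The fit was tested on simulated data. Cells were clustered with Seurat 5.3.0 (2500 features, 30 components, resolution 0.5, alternative 0.8). A cluster was named from at least 3 markers; where none was among its 10 leading genes, a mean log2 fold of 1.5 over the list was required, a limit chosen after the clusters were seen. No doublet caller was run, and 1200 cells with other cell types' markers were left out as an alternative. The 5 genes and all lists were chosen with earlier results of these data known. Pathway genes named were those called with the largest change, up to 4 per list, and for likeness the 3 genes of highest r. A called gene of the adaptor list is not reported here. Alternatives changed scaling, filter, pseudocount (5 CPM), summing, cells, class weights, clustering, replicate block and libraries left out; median-of-ratios scaling within clusters was chosen after seeing the data.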

Additional observations from a re-analysis of the deposited data

Results flagged for a closer look

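The responses of 5 member and cell set pairs differed between the models by the limma contrast of the responses, given on the log2 scale as implanted minus spontaneous. Angpt2 differed by 2.10 over all Pecam1-positive cells, by 3.56 in the Ptn/Robo1 cluster and by 2.80 in tip-like cells. Tie1 differed by -1.16 in venous-like cells, and Ptprb by 0.91 in tip-like cells. Of these, the Angpt2 difference in the Ptn/Robo1 cluster was 1.63 with the finer clustering, and the Ptprb difference in tip-like cells was 0.55 and not called. The Tie1 difference in venous-like cells was tested in a cluster of 879 cells, with 44 to 158 cells a library.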

How the results depend on the processing

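The 4 implanted responses kept direction and call under 18 of 18 alternatives. The count of genes called was 812 without a filter and 2839 on summed UMIs for the spontaneous response (1322 as reported), 0, 112, 43 and 105 without a filter, on summed UMIs, on all cells and with equal class weights for the difference (69), 327 and 1317 without a filter and on summed UMIs for the models after PBS (816), and 784 without a filter after cGAMP (1434). For the spontaneous response, Angpt2 was called at 0.64 on summed UMIs, 0.57 with equal class weights and 0.44 on 1 model alone, and Tek at -0.35 on summed UMIs, -0.33 on cells with at least 2000 UMIs and -0.28 on 1 model alone. Tie1 turned to -0.02 on summed UMIs, -0.01 on all cells, -0.01 on cells with at least 2000 UMIs and -0.03 with equal class weights. Without a filter the Angpt2 difference (2.10) and Ptprb after cGAMP (-0.43) lost their calls. Tek after PBS lost its call with median-of-ratios scaling (-0.28), without a filter (-0.36), on all cells (-0.33) and with the replicate number as a block (-0.36, limma adjusted p = 0.0584). Same-numbered libraries did not deviate together (correlations -0.22 to 0.13), so numbers were not taken to pair samples. The causes were not tested.

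Leaving out 1 library, the lone library left being assumed to vary like the others, gave 448 to 1808 genes for the spontaneous response, 1265 to 2495 for the implanted response, 2 to 171 for the difference, 212 to 1234 after PBS and 156 to 1447 after cGAMP. The ranges were -0.35 to -0.20 for Tek, -0.10 to 0.14 for Tie1 and -0.51 to -0.44 for Ptprb in the spontaneous response, 1.81 to 2.40 for Angpt2 and -0.78 to -0.53 for Tie1 in the difference, and -0.91 to -0.31 for Angpt2 and -0.44 to -0.29 for Tek after PBS. After cGAMP they were -0.65 to -0.45 for Tek, -0.88 to -0.63 for Tie1 and -0.46 to -0.39 for Ptprb. In the implanted response they were 2.25 to 2.85 for Angpt2, -0.57 to -0.36 for Tek, -0.75 to -0.52 for Tie1 and -0.87 to -0.59 for Ptprb.

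Within clusters, signs turned with the finer clustering for the spontaneous Angpt2 response of Ptn/Robo1 (1.70) and tip-like cells (-0.40). With summed UMIs and median-of-ratios scaling the Tek difference turned in tip-like (0.09 and 0.06) and Mal/Pcp4l1 cells (0.02 and 0.04). Median-of-ratios scaling turned the spontaneous Tie1 response of AQP7+ (0.01), Mal/Pcp4l1 (0.09) and Gkn3/Gper1 cells (0.07), the implanted Ptprb response of Ptn/Robo1 cells (0.03) and the Ptprb difference of the Spp1/Wfdc18 cluster (-0.07), and summed UMIs the spontaneous Ptprb response there (-0.05). With 1 library left out, signs turned for Angpt2 in the spontaneous response of Spp1/Wfdc18 (-0.34 to 0.92), tip-like (-0.33 to 0.56) and Gkn3/Gper1 cells (-2.91 to 0.62). For Tek they turned in the spontaneous response of Spp1/Wfdc18 (-0.05 to 0.98), Ptn/Robo1 (-0.22 to 0.04) and Mal/Pcp4l1 cells (-0.38 to 0.01), in the implanted response of Spp1/Wfdc18 (-0.87 to 0.12), AQP7+ (-0.16 to 0.33) and Gkn3/Gper1 cells (-0.01 to 0.15), and in the difference of tip-like (-0.26 to 0.24) and Mal/Pcp4l1 cells (-0.24 to 0.16). For Tie1 they turned in the spontaneous response of Ptn/Robo1 (-0.06 to 0.24), AQP7+ (-0.20 to 0.07), Mal/Pcp4l1 (-0.21 to 0.20) and Gkn3/Gper1 cells (-0.19 to 0.14), the implanted response of Spp1/Wfdc18 (-0.57 to 0.23) and the difference of Gkn3/Gper1 cells (-0.30 to 0.03). For Ptprb they turned in the implanted response of Spp1/Wfdc18 (-0.34 to 0.72) and Ptn/Robo1 cells (-0.30 to 0.11) and in their differences (-0.52 to 0.53 and -0.15 to 0.27). The 19 called responses over clusters became 17 to 21 with 1 library left out.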
